A study of Mus musculus with 14 samples.

Results

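The unfolded protein response and the folding machinery of the endoplasmic reticulum (ER) were followed through 36 listed genes in mouse liver. Each gene was read from its single-gene probe of highest mean over the arrays, and all 36 were found among the 19938 genes tested. By role they comprise 15 chaperones and folding enzymes, 6 stress sensors and transcription factors, 4 targets of the factors ATF4 and CHOP, 7 genes of ER-associated degradation (ERAD) and 4 genes of protein translocation and signal-peptide processing. The tissue came from female mice aged 14 months in 3 groups, and that of both knockouts is labelled free of tumour. Mice labelled Mdr2-KO/IL6-KO lack Mdr2 and interleukin 6 (6 arrays), mice labelled Mdr2-KO lack Mdr2 alone (5 arrays), and wild-type mice are C57BL/6 (3 arrays). Neither the strain of the knockouts nor the way their alleles were made is stated in the labels. Mdr2 is an alias of Abcb4, the transporter that moves phosphatidylcholine into bile, and its loss is used as a model of chronic bile duct injury. RNA from snap-frozen tissue was converted to biotinylated cRNA and hybridised to an Affymetrix mouse gene array, and all values below are log2 intensities.

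Secreted and membrane proteins enter the ER through the Sec61 channel, fold there with the help of chaperones and disulphide isomerases, and are sent back to the cytosol for degradation if folding fails. When unfolded proteins build up, 3 sensors in the ER membrane respond. IRE1 (Ern1) splices the mRNA of Xbp1, PERK (Eif2ak3) phosphorylates the initiation factor eIF2α and so favours translation of ATF4, and ATF6 is cut to release a transcription factor. Hepatocytes secrete most plasma proteins and carry an extensive ER, and both XBP1 and ATF6 raise the genes of the folding and ERAD machinery.

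Relative to wild type, 7 of the 36 genes were higher in Mdr2-KO liver (Hyou1, Sec61b, Selenos, Manf, Pdia6, Sdf2l1 and Ddit3) and 3 were lower (Asns, Xbp1 and Ssr1), with differences between -0.49 and 0.70 log2 units. Over all genes tested 8.89% were called higher and 12.1% lower in this comparison, or 21.0% in either direction (limma, adjusted p under 0.05 after Benjamini-Hochberg adjustment over all 19938 genes), against 19.4% and 8.33% of the 36. In Mdr2-KO/IL6-KO against wild type 2 were higher (Eif2ak3 and Ddit3) and 3 were lower (Xbp1, Edem1 and Sel1l), with 6.96% of all genes called higher and 5.33% lower, or 12.3% in either direction. Between the knockouts, Mdr2-KO/IL6-KO over Mdr2-KO, 0 of the 36 were higher and 3 were lower (Sdf2l1, Sec61b and Syvn1), where 5.04% of all genes were called higher and 3.72% lower, or 8.76% in either direction. At an unadjusted p under 0.05 from limma, 14 of the 36 were higher and 5 lower in Mdr2-KO over wild type (38.9% and 13.9%), where 13.5% and 24.0% of all genes were. In Mdr2-KO/IL6-KO over wild type 7 were higher and 6 lower (19.4% and 16.7%, with 13.3% and 12.2% of all genes). Between the knockouts 3 were higher and 10 lower (8.33% and 27.8%, with 19.8% and 9.12% of all genes). The 36 genes were chosen with earlier results of these data known. Their shares beside those of all genes are therefore descriptive and no independent test of the pathway. The median difference of the 36 was 0.10 in Mdr2-KO over wild type, where the median of all genes was -0.07, and it was 0.01 in Mdr2-KO/IL6-KO over wild type, where that of all genes was -0.02. Between the knockouts it was -0.10, where that of all genes was 0.06. With the deposited values 27 of the 36 differences were below 0 there, as were 6831 of all 19938. The medians between the knockouts move with the scaling. They were -0.15 for the 36 and 0.01 for all genes when each array was centred on its median, and -0.10 and 0.01 under quantile normalization. The calls over all genes then turned to 424 higher and 1056 lower under centring and 675 and 852 under quantile normalization, against 1005 and 741 as deposited. The first 2 comparisons share the 3 wild-type arrays, and each shares its knockout arrays with the third. Whether every array comes from its own mouse is not stated, so p-values here reflect array-to-array spread, which may be technical. Because whole tissue was measured, fewer cells of a type and less RNA per cell cannot be told apart.

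**Figure D1:**
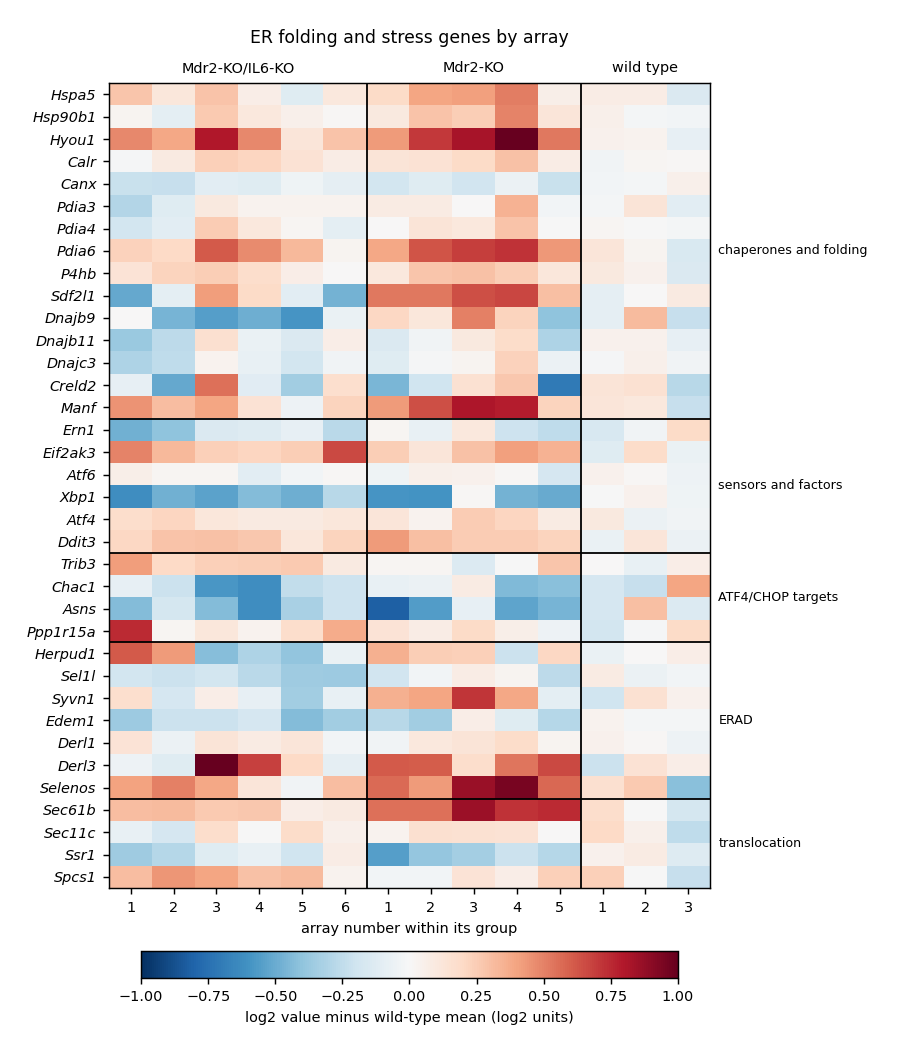
Log2 value minus the wild-type mean (colour, log2 units) for the 36 genes (rows, grouped by role) on the 14 arrays (columns, Mdr2-KO/IL6-KO, Mdr2-KO, then wild type). Hyou1, Pdia6, Manf, Selenos and Sec61b are red on all 5 Mdr2-KO arrays, and Xbp1 is blue on 4 of the 5.

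Before the individual genes, the deleted genes and the detection limit were read. Abcb4, the deleted transporter, averaged 9.05 ± 0.20 in Mdr2-KO/IL6-KO and 9.01 ± 0.19 in Mdr2-KO, against 10.36 ± 0.03 in wild type (SD, n = 6, 5 and 3), and all knockout arrays lay below all wild-type arrays. Il6 lay under the background of the array in every group, so its loss could not be read. That background is 5.49, the 95th percentile of the mean values of 1016 olfactory receptor genes. Of the 36 genes, Asns alone had group means under it, at 5.40 in Mdr2-KO/IL6-KO and 5.28 in Mdr2-KO.

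Some of these genes carry the ER stress element (ERSE), the sequence that ATF6 and XBP1 bind together with NF-Y, in their promoters. RefSeq promoters of GRCm38.p6, which run from 250 bases before to 50 bases after the gene start, matched 31 of the 36 genes (not Atf6, Derl1, Hyou1, Manf or Sec11c). The ERSE was searched as CCAAT, any 9 bases and CCACG, on both strands. It was found in 9 of the 31 promoters (29%) and in 39 of all 32851 promoters (0.119%). The gene best known for it is Hspa5, which encodes the chaperone BiP, and the 250 bases before its start (chr2:34771840-34772089, plus strand, 5′ to 3′) are printed with the ends of the element in capitals.
Hspa5: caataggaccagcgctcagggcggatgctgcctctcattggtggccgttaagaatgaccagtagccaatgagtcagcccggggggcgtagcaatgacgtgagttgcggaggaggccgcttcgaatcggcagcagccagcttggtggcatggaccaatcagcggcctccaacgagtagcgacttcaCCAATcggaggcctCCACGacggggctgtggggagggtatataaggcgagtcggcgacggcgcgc
The other 8 genes follow, each with 10 bases on either side of the element, on the strand that reads CCAAT first, so that the shared ends can be set beside the free middle.
Hsp90b1 distal copy (chr10:86705628-86705666, minus strand): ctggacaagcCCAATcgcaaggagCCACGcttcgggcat
Hsp90b1 proximal copy (chr10:86705523-86705561, plus strand): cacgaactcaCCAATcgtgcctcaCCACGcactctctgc
Calr (chr8:84847065-84847103, plus strand): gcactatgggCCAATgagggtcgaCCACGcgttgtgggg
Canx (chr11:50325790-50325828, minus strand): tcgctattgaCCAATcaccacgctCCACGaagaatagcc
Pdia6 (chr12:17266481-17266519, plus strand): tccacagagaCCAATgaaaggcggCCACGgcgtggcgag
Dnajc3 (chr14:118937817-118937855, plus strand): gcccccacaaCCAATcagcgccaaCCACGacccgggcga
Creld2 (chr15:88819510-88819548, minus strand): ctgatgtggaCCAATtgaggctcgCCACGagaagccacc
Derl3 (chr10:75893232-75893270, minus strand): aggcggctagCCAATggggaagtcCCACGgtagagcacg
Syvn1 (chr19:6046522-6046560, plus strand): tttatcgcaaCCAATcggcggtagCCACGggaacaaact
Counted from the gene start, the elements began between positions -212 (Hsp90b1) and -44 (Syvn1), and 4 of the 10 lay on the strand opposite to the gene.

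Other elements of the pathway were rarer among the 31. ERSE-II (ATTGG, any 1 base and CCACG, either strand) was in 2 of the 31 promoters and in 0.0365% of all promoters. Herpud1, whose product helps assemble ERAD complexes, held 1 copy that begins at position -52, shown with its ends in capitals.
Herpud1 (chr8:94386367-94386397, plus strand): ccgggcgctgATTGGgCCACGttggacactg
The second, in Dnajb11, begins 7 bases after the start. The ATF4 element searched as TTGCATCA was in Chac1 and Herpud1 and in 0.895% of all promoters. The XBP1 element searched as TGACGTGG was in none of the 31 and in 0.676% of all promoters. CGTGG, the reverse of CCACG, is part of that last motif, so matches could overlap. Since none of the 31 held that motif, no overlap could arise among them. A match describes letters and not binding, and a missing match says only that these letters are not in this window. In Mdr2-KO over wild type 1 of the 9 genes with an ERSE was higher (Pdia6) and 0 were lower, with a median difference of 0.25, whereas of the 22 genes with a promoter and no ERSE 4 were higher and 3 lower, with a median of 0.09. Between the knockouts 1 of the 9 was lower (Syvn1), with a median of -0.19, and 2 of the 22 were lower, with a median of -0.08. The 12 other tested genes with an ERSE, which are not among the 36, had a median of 0.06 in Mdr2-KO over wild type (2 higher, 0 lower) and of 0.08 between the knockouts (0 higher, 2 lower). Over all genes 8.89% were called higher and 12.1% lower in Mdr2-KO over wild type (median -0.07). Between the knockouts 5.04% and 3.72% were (median 0.06). In Mdr2-KO/IL6-KO over wild type 0 of the 9 were called. There 2 of the 22 were higher and 3 lower, and 3 of the 12 were higher and 1 lower (6.96% and 5.33% of all genes). Of the 5 genes without a promoter entry 2 were higher in Mdr2-KO over wild type, and none was called elsewhere. None of these counts or medians was tested.

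**Figure D2:**
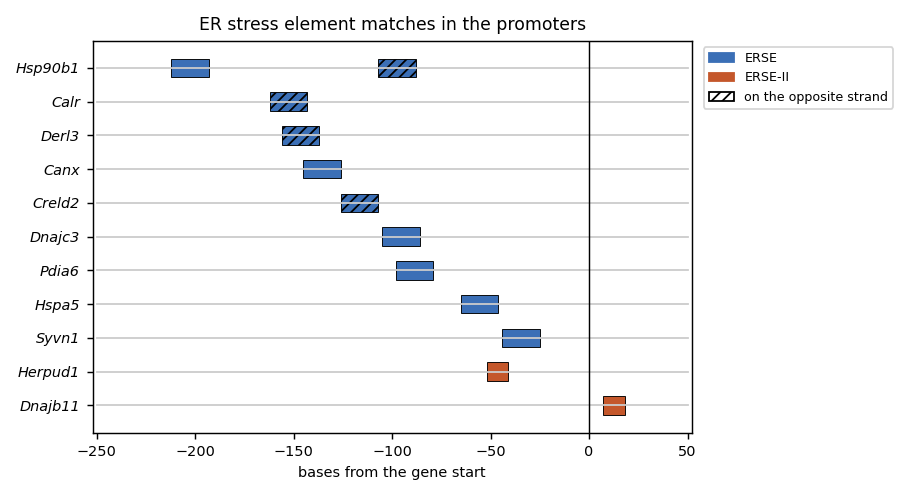
Position of the ERSE (blue) and ERSE-II (orange) matches, in bases from the gene start (x axis, 0 is the start), in the 11 promoters that hold one; hatching marks matches on the strand opposite to the gene. The ERSE matches begin between -212 and -44, and Hsp90b1 holds 2.

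Among the chaperones and folding enzymes, 4 of 15 were higher in Mdr2-KO than in wild type and none was lower (median difference 0.17). Over all genes 8.89% were called higher there and 12.1% lower. Hyou1, the nucleotide exchange factor and holdase of the ER known as GRP170, had a lowest, median and highest log2 value of 9.19, 9.49 and 9.87 in Mdr2-KO/IL6-KO and read 9.49, 9.77, 9.89, 10.09 and 9.59 on the Mdr2-KO arrays, against 9.11, 9.10 and 8.98 in wild type. All Mdr2-KO arrays lay above all wild-type arrays, and Hyou1 rose 1.63-fold there (log2 difference 0.70, SE 0.14, adjusted p = 0.00319). The Mdr2-KO/IL6-KO arrays also lay above all 3 wild-type arrays, but their difference of 0.42 missed the threshold (95% interval 0.14 to 0.71, adjusted p = 0.0527). It passed without Mdr2-KO/IL6-KO array 5 or 6 (adjusted p = 0.0256 or 0.0494) or without Mdr2-KO array 1 or 4 (0.0455 or 0.0371). With all arrays kept it passed under quantile normalization (0.0398) and with genes of low mean left out (0.0408). Trend and robust moderation (0.0491) and the 2 groups fitted alone (0.0487) also let it pass. The knockouts differed by -0.28 and overlapped (95% interval -0.52 to -0.03, adjusted p = 0.131).

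Pdia6, a disulphide isomerase that also attenuates IRE1, had the same order of group means. Its lowest, median and highest values were 9.36, 9.61 and 9.95 in Mdr2-KO/IL6-KO, and it read 9.72, 9.96, 10.02, 10.05 and 9.76 in Mdr2-KO, against 9.46, 9.36 and 9.18 in wild type. Mdr2-KO and wild type did not overlap, and Pdia6 rose 1.49-fold (log2 difference 0.57, SE 0.12, adjusted p = 0.00427). The Mdr2-KO/IL6-KO arrays overlapped both other groups, and neither difference passed (0.31 over wild type, adjusted p = 0.0956, and -0.26 over Mdr2-KO, adjusted p = 0.103). The first passed without Mdr2-KO/IL6-KO array 6 (adjusted p = 0.0382) and the second without Mdr2-KO/IL6-KO array 3 (0.0473). The calls of Hyou1 and Pdia6 in Mdr2-KO over wild type held under all 21 alternative settings, including each array left out in turn.

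Sdf2l1, a partner of ER-resident DnaJ proteins that limits aggregation of substrates, was called in both comparisons that involve Mdr2-KO. Its lowest, median and highest values were 8.73, 9.14 and 9.66 in Mdr2-KO/IL6-KO, and it read 9.77, 9.77, 9.89, 9.91 and 9.55 in Mdr2-KO, against 9.16, 9.24 and 9.33 in wild type. No Mdr2-KO array overlapped wild type, and Sdf2l1 rose 1.45-fold over wild type (log2 difference 0.54, SE 0.17, adjusted p = 0.0360). That call was lost when any of 6 arrays was left out, at an adjusted p of 0.0597, 0.0627 or 0.0727 without Mdr2-KO array 1, 3 or 4 and of 0.106, 0.0659 or 0.0787 without wild-type array 1, 2 or 3. Only the highest Mdr2-KO/IL6-KO array reached the lowest Mdr2-KO array, and Sdf2l1 fell by 0.63 log2 units against Mdr2-KO (SE 0.14, adjusted p = 0.0146). The fall between the knockouts was kept under all 21 alternatives. Against wild type the Mdr2-KO/IL6-KO difference was -0.10 (95% interval -0.44 to 0.25, adjusted p = 0.783).

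Manf, a secreted ER protein that stabilises BiP complexes, had a lowest, median and highest value of 8.13, 8.45 and 8.63 in Mdr2-KO/IL6-KO and read 8.61, 8.82, 8.99, 8.97 and 8.40 in Mdr2-KO, against 8.30, 8.29 and 7.95 in wild type. The lowest Mdr2-KO array stood just above the wild-type arrays. Manf rose 1.49-fold in Mdr2-KO (log2 difference 0.58, SE 0.14, adjusted p = 0.00980), and it missed 0.05 when wild-type array 3 was dropped (0.0667). The Mdr2-KO/IL6-KO arrays overlapped both groups, and their differences were 0.25 over wild type (adjusted p = 0.279) and -0.33 over Mdr2-KO (adjusted p = 0.0777). Between the knockouts Manf passed without Mdr2-KO array 5 (-0.42, adjusted p = 0.0276).

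The major chaperones of the lumen shifted less. Hspa5, which holds unfolded chains and keeps the sensors inactive, read 11.65, 11.85, 11.87, 11.97 and 11.52 in Mdr2-KO and 11.53, 11.53 and 11.31 in wild type. One Mdr2-KO array lay within the wild-type range, and the difference of 0.31 missed the threshold (95% interval 0.08 to 0.55, adjusted p = 0.0529). Without Mdr2-KO array 5 the difference was 0.38 and passed (adjusted p = 0.0228), and it also passed without Mdr2-KO/IL6-KO array 5 (0.0421). Leaving out genes of low mean (0.0454) and trend and robust moderation (0.0452) let Hspa5 pass as well. Hsp90b1, the ER form of HSP90, differed by 0.25 (adjusted p = 0.0629), the isomerase P4hb by 0.21 (adjusted p = 0.0700) and the lectin chaperone calreticulin (Calr) by 0.17 (adjusted p = 0.0949). For these 3 genes no Mdr2-KO array overlapped a wild-type array, although 0.05 was not reached. Calnexin (Canx), the membrane-bound lectin chaperone, was on the other side of 0 at -0.16 (adjusted p = 0.0911), and its groups did not overlap either. How often genes at large separate in this way was not computed, so the lack of overlap adds no support. When the deposited values were quantile normalised again, Hspa5, Hsp90b1, P4hb and Calr passed (adjusted p = 0.0331, 0.0264, 0.0423 and 0.0361). The split over the 36 genes was then 11 higher and 2 lower, against 7 and 3 with the authors' normalization. Over all genes the split also moved, from 1772 higher and 2417 lower to 1793 and 1763.

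The remaining folding genes did not pass in any comparison. In Mdr2-KO over wild type Pdia3, Pdia4, Dnajb9, Dnajb11, Dnajc3 and Creld2 differed by -0.19 to 0.13. Dnajb9, a cochaperone of BiP that restrains IRE1, had the widest gap of these between the knockouts, at -0.49 (95% interval -0.81 to -0.16, adjusted p = 0.0593). Its values were 9.29, 9.40 and 9.88 in Mdr2-KO/IL6-KO (lowest, median and highest), against 10.08, 9.98, 10.37, 10.09 and 9.48 in Mdr2-KO. The Mdr2-KO array 5 lay within the Mdr2-KO/IL6-KO range, and without it Dnajb9 passed (-0.62, adjusted p = 0.0158), as it did without Mdr2-KO/IL6-KO array 1 (-0.56, adjusted p = 0.0403). Dnajb9 also passed with array weights (-0.50, adjusted p = 0.0369). Between the knockouts 13 of the 15 folding genes had a difference below 0 (6831 of all 19938 genes), with a median of -0.15, and only Sdf2l1 was called. In Mdr2-KO/IL6-KO over wild type none of the 15 was called and 7 were above 0.

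**Figure D3:**
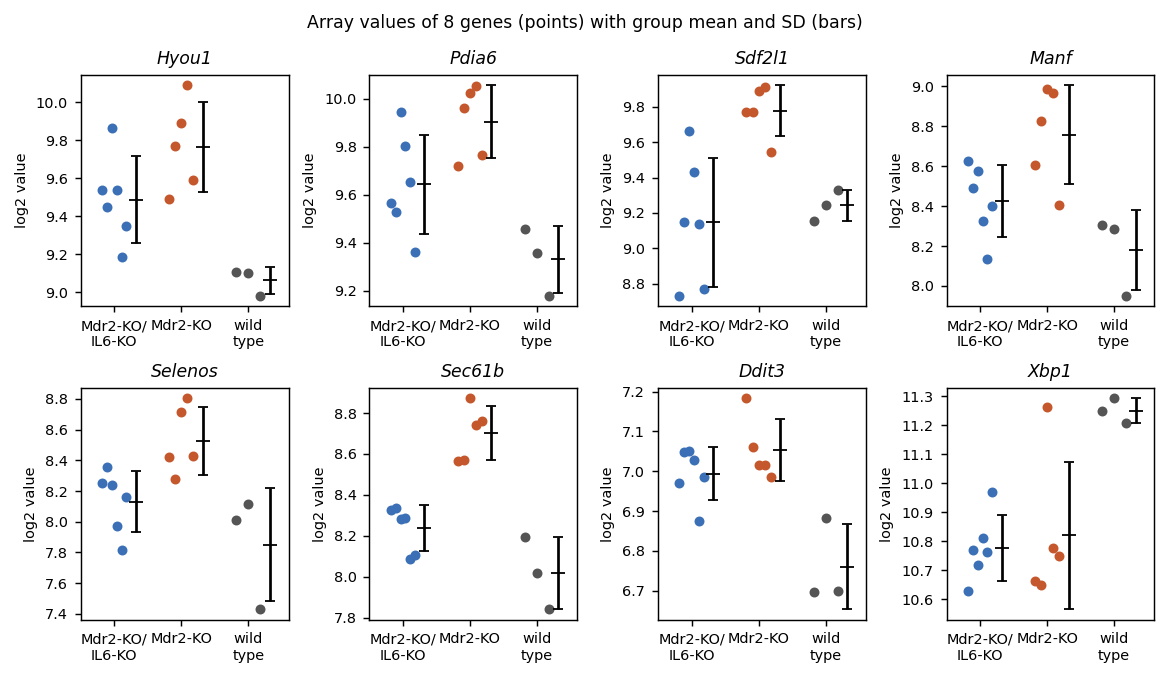
Log2 values of 8 genes on every array (points), with group mean and SD (bars), for Mdr2-KO/IL6-KO (6 arrays), Mdr2-KO (5) and wild type (3); each panel has its own axis. Sec61b and Sdf2l1 are highest in Mdr2-KO with the other groups below, Ddit3 is high in both knockouts, and Xbp1 is low in both apart from Mdr2-KO array 3.

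Of the 3 sensors, PERK alone was called. Eif2ak3 had a lowest, median and highest value of 7.63, 7.71 and 8.08 in Mdr2-KO/IL6-KO, and read 7.67, 7.55, 7.72, 7.83 and 7.77 in Mdr2-KO, against 7.30, 7.61 and 7.36 in wild type. Mdr2-KO/IL6-KO and wild type did not overlap, and Eif2ak3 rose 1.29-fold (log2 difference 0.36, SE 0.10, adjusted p = 0.0306). The call was lost without Mdr2-KO/IL6-KO array 1 (adjusted p = 0.0576) and without wild-type array 1 or 3 (0.139 or 0.113), and also when each array was centred on its median (0.0590) or only the 2 groups were fitted (0.0606). Mdr2-KO overlapped 1 wild-type array and did not pass (0.29, adjusted p = 0.0658). It passed there without Mdr2-KO/IL6-KO array 6 (adjusted p = 0.0371), Mdr2-KO array 2 (0.0450) or wild-type array 2 (0.0321), and with array weights (0.0322). The knockouts differed by 0.08 (95% interval -0.11 to 0.26, adjusted p = 0.578).

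Ern1 and Atf6 were not called in any comparison. Ern1 had values of 8.54, 8.81 and 8.94 in Mdr2-KO/IL6-KO (lowest, median and highest), 9.04, 8.95, 9.13, 8.82 and 8.77 in Mdr2-KO and 8.87, 8.99 and 9.21 in wild type. Its difference was -0.25 in Mdr2-KO/IL6-KO over wild type (adjusted p = 0.146) and -0.08 in Mdr2-KO over wild type (adjusted p = 0.610). Atf6 had values of 9.63, 9.75 and 9.80 in Mdr2-KO/IL6-KO, 9.70, 9.79, 9.78, 9.75 and 9.57 in Mdr2-KO and 9.78, 9.75 and 9.69 in wild type. The 3 groups of Atf6 overlapped fully, and its 95% intervals lay within -0.16 and 0.13. Both proteins are activated after translation, by oligomerisation or cleavage, which an mRNA array does not measure.

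Xbp1 encodes the factor made from the mRNA that IRE1 splices, and the gene-level value does not separate the spliced from the unspliced form. Its lowest, median and highest values in Mdr2-KO/IL6-KO were 10.63, 10.77 and 10.97, and the Mdr2-KO arrays read 10.66, 10.65, 11.27, 10.78 and 10.75, against 11.25, 11.29 and 11.21 in wild type. All Mdr2-KO/IL6-KO arrays and 4 of 5 Mdr2-KO arrays lay below wild type, while Mdr2-KO array 3 lay among the wild-type values. Against wild type, Xbp1 fell by 0.47 log2 units in Mdr2-KO/IL6-KO livers (SE 0.11, adjusted p = 0.0121) and by 0.43 in Mdr2-KO livers (SE 0.12, adjusted p = 0.0184). The Mdr2-KO/IL6-KO call held under all 21 alternatives. The Mdr2-KO call ended without wild-type array 1 (adjusted p = 0.05001) and when only the 2 groups were fitted (adjusted p = 0.05003). The knockouts differed by -0.04 (95% interval -0.25 to 0.16).

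Ddit3, the gene of CHOP, a factor that rises late in ER stress, was the 1 gene of the 36 called higher in both knockouts against wild type. It had values of 6.88, 7.01 and 7.05 in Mdr2-KO/IL6-KO (lowest, median and highest) and 7.18, 7.06, 7.02, 7.02 and 6.99 in Mdr2-KO, against 6.70, 6.88 and 6.70 in wild type. No Mdr2-KO array overlapped wild type, and the lowest Mdr2-KO/IL6-KO array lay just under the highest wild-type array. Ddit3 rose 1.18-fold in Mdr2-KO/IL6-KO livers (log2 difference 0.23, SE 0.07, adjusted p = 0.0314) and 1.22-fold in Mdr2-KO (0.29, SE 0.07, adjusted p = 0.00851). The Mdr2-KO call held under all 21 alternatives. The Mdr2-KO/IL6-KO call was lost without Mdr2-KO/IL6-KO array 2, 3 or 4 (adjusted p = 0.0593, 0.0602 or 0.0587), without wild-type array 1 or 3 (0.130 or 0.120), under quantile normalization (0.0656), under centring (0.0915) and with only the 2 groups fitted (0.0549).

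Atf4, the factor whose translation PERK favours, had values of 7.89, 7.91 and 8.01 in Mdr2-KO/IL6-KO, 7.92, 7.83, 8.05, 8.01 and 7.88 in Mdr2-KO and 7.90, 7.74 and 7.76 in wild type. Each knockout group overlapped 1 wild-type array, and the differences of 0.13 in Mdr2-KO/IL6-KO (adjusted p = 0.211) and 0.14 in Mdr2-KO (adjusted p = 0.137) did not pass. Of the 4 ATF4 and CHOP targets, Asns, which makes asparagine, was lower in Mdr2-KO, with 4.95, 5.21, 5.68, 5.23 and 5.30 against 5.60, 6.07 and 5.63 in wild type. One Mdr2-KO array lay among the wild-type arrays, and the other 4 were under the background level of 5.49. Asns fell by 0.49 log2 units (SE 0.15, adjusted p = 0.0283), at the edge of detection. That call was lost without Mdr2-KO array 1 or 4 (adjusted p = 0.0614 or 0.0531), without wild-type array 2 (0.115), under quantile normalization (0.119) and with only the 2 groups fitted (0.0592). In Mdr2-KO/IL6-KO Asns differed by -0.37 from wild type (adjusted p = 0.111). Trib3, the pseudokinase induced by CHOP, and Ppp1r15a, the phosphatase subunit GADD34 that reverses eIF2α phosphorylation, differed by 0.24 each in Mdr2-KO/IL6-KO over wild type (adjusted p = 0.0796 and 0.278). Trib3 did not overlap there and passed without Mdr2-KO/IL6-KO array 6 or Mdr2-KO array 5 (adjusted p = 0.0484 or 0.0450) and with array weights (0.0419). Between the knockouts Trib3 differed by 0.20 (adjusted p = 0.0846), passing without Mdr2-KO array 5 (0.0255). Chac1, a glutathione-degrading enzyme, differed by -0.33 in Mdr2-KO/IL6-KO over wild type (adjusted p = 0.210).

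**Figure D4:**
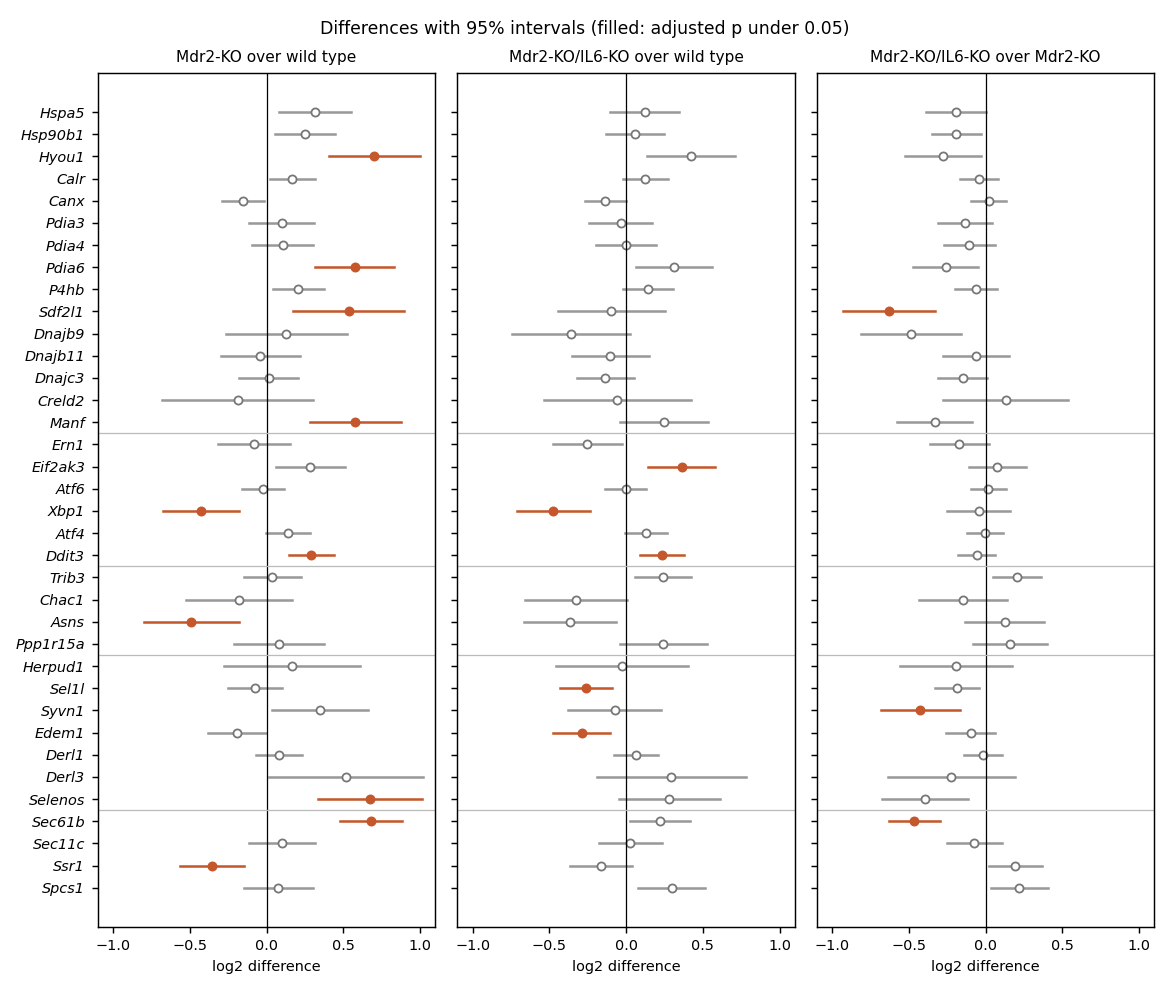
Log2 difference with its 95% interval (x axis, log2 units) for the 36 genes (rows, grouped by role) in the 3 comparisons named above the panels; filled orange points have an adjusted p under 0.05. Filled points lie on both sides of 0 in the comparisons with wild type, and the 3 between the knockouts, Sdf2l1, Syvn1 and Sec61b, all lie below 0.

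In ERAD, 1 of 7 genes was higher in Mdr2-KO than in wild type, 2 of 7 were lower in Mdr2-KO/IL6-KO than in wild type, and 1 of 7 was lower in Mdr2-KO/IL6-KO than in Mdr2-KO. The matching shares over all genes were 8.89% higher, 5.33% lower and 3.72% lower. Selenos, a selenoprotein that anchors the p97 ATPase at the ER membrane, had a lowest, median and highest value of 7.81, 8.20 and 8.36 in Mdr2-KO/IL6-KO and read 8.42, 8.28, 8.71, 8.80 and 8.43 in Mdr2-KO, against 8.01, 8.11 and 7.43 in wild type. Mdr2-KO and wild type did not overlap, though wild-type array 3 stood well below the other 2. Selenos rose 1.60-fold in Mdr2-KO (log2 difference 0.68, SE 0.16, adjusted p = 0.00882), and without wild-type array 3 the call was lost (adjusted p = 0.0629). Mdr2-KO/IL6-KO differed by -0.40 from Mdr2-KO, which did not pass (95% interval -0.68 to -0.11, adjusted p = 0.0701). It passed without Mdr2-KO array 2 (adjusted p = 0.0498) or wild-type array 3 (0.0359), with array weights (0.0385) and with only the 2 groups fitted (0.0437).

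Sel1l and Syvn1 form the core of the HRD1 ubiquitin ligase, Sel1l as its scaffold and Syvn1 as the ligase itself. Sel1l had values of 9.52, 9.64 and 9.70 in Mdr2-KO/IL6-KO (lowest, median and highest) and 9.69, 9.86, 9.96, 9.92 and 9.62 in Mdr2-KO, against 9.97, 9.83 and 9.86 in wild type. Mdr2-KO/IL6-KO and wild type did not overlap, while Mdr2-KO overlapped both, and Sel1l fell by 0.26 log2 units in Mdr2-KO/IL6-KO against wild type (SE 0.08, adjusted p = 0.0436). The call was lost without Mdr2-KO/IL6-KO array 2, 4, 5 or 6 (adjusted p = 0.0573, 0.0718, 0.0764 or 0.0702), without Mdr2-KO array 2 (0.0535), without wild-type array 1, 2 or 3 (0.172, 0.0656 or 0.0905) and under quantile normalization (0.0736). Between the knockouts Sel1l differed by -0.19 (adjusted p = 0.0926) and passed without Mdr2-KO array 5 (-0.23, adjusted p = 0.0428).

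Syvn1 was called between the knockouts. It had values of 8.55, 8.82 and 9.07 in Mdr2-KO/IL6-KO and 9.26, 9.29, 9.61, 9.29 and 8.80 in Mdr2-KO, against 8.70, 9.05 and 8.95 in wild type. Of the Mdr2-KO arrays 4 lay above all Mdr2-KO/IL6-KO arrays and array 5 lay among them. Syvn1 fell by 0.42 log2 units (SE 0.12, adjusted p = 0.0431), and this was no longer called without Mdr2-KO/IL6-KO array 2, 4, 5 or 6 (adjusted p = 0.0758, 0.0750, 0.0876 or 0.0651) and without Mdr2-KO array 1, 2, 3 or 4 (0.0898, 0.0624, 0.104 or 0.0864). The Mdr2-KO difference over wild type of 0.35 did not pass (adjusted p = 0.0971), but did without Mdr2-KO array 5 (0.46, adjusted p = 0.0194).

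Edem1, a lectin that hands misfolded glycoproteins to degradation, had values of 10.21, 10.36 and 10.47 in Mdr2-KO/IL6-KO and 10.36, 10.29, 10.71, 10.52 and 10.36 in Mdr2-KO, against 10.68, 10.62 and 10.63 in wild type. Mdr2-KO/IL6-KO and wild type did not overlap, and in that comparison Edem1 fell by 0.29 log2 units (SE 0.09, adjusted p = 0.0404). The call was lost without Mdr2-KO/IL6-KO array 1, 5 or 6 (adjusted p = 0.0716, 0.0712 or 0.0616), without wild-type array 1, 2 or 3 (0.126, 0.0840 or 0.0922) and under quantile normalization (0.112). In Mdr2-KO over wild type Edem1 did not pass (-0.19, adjusted p = 0.131). Without Mdr2-KO array 3, which lay above the wild-type arrays, the Mdr2-KO difference was -0.26 and passed (adjusted p = 0.0347). Between the knockouts all 7 ERAD genes had differences below 0 (6831 of all 19938 genes), with a median of -0.19, and Syvn1 alone was called.

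Herpud1, Derl1 and Derl3 were not called. Herpud1 varied widely within Mdr2-KO/IL6-KO, where arrays 1 and 2 read 11.76 and 11.57 and the other 4 lay between 10.72 and 11.07, against 11.50, 11.39, 11.38, 10.93 and 11.35 in Mdr2-KO and 11.08, 11.15 and 11.21 in wild type. Derl3, a derlin of the retrotranslocation machinery, varied more in that group, with 7.97 and 7.50 on arrays 3 and 4 and 6.70 to 7.01 on the rest. The high arrays of Herpud1 and of Derl3 were different ones. Derl3 lay higher on every Mdr2-KO array (6.99 to 7.48) than in wild type (6.60 to 6.96), and its difference of 0.52 did not pass in the fit of all 3 groups (95% interval 0.02 to 1.02, adjusted p = 0.123). It passed when only Mdr2-KO and wild type were fitted (adjusted p = 0.0186) and without Mdr2-KO/IL6-KO array 3 (adjusted p = 0.0417).

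Of the 4 translocation genes, Sec61b, the β subunit of the channel, had the smallest adjusted p of the 36 in both comparisons that involve Mdr2-KO. Its lowest, median and highest values were 8.09, 8.28 and 8.34 in Mdr2-KO/IL6-KO, and it read 8.57, 8.57, 8.87, 8.74 and 8.76 in Mdr2-KO, against 8.20, 8.02 and 7.84 in wild type. The Mdr2-KO arrays stood apart from both other groups without overlap. Sec61b rose 1.61-fold over wild type (log2 difference 0.68, SE 0.09, adjusted p = 0.000271) and fell by 0.46 in Mdr2-KO/IL6-KO against Mdr2-KO (SE 0.08, adjusted p = 0.00347), and both calls held under all 21 alternatives. Mdr2-KO/IL6-KO over wild type was 0.22 (95% interval 0.02 to 0.41, adjusted p = 0.142). Sec61b has 2 further probes, which differed by 0.80 and 0.85 in Mdr2-KO over wild type and by -0.56 and -0.65 between the knockouts.

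Ssr1, the α subunit of the translocon-associated TRAP complex, went the other way from Sec61b. It read 10.24, 10.41, 10.45, 10.58 and 10.50 in Mdr2-KO, against 10.83, 10.88 and 10.67 in wild type, with no overlap. Ssr1 fell by 0.35 log2 units (SE 0.10, adjusted p = 0.0195), and the call was lost without wild-type array 1 or 2 (adjusted p = 0.0641 or 0.0583). The signal peptidase subunits Spcs1 and Sec11c were not called. Spcs1 differed by 0.30 in Mdr2-KO/IL6-KO over wild type (95% interval 0.08 to 0.52, adjusted p = 0.0720), and it passed without Mdr2-KO/IL6-KO array 6 (0.35, adjusted p = 0.0261) or wild-type array 1 (0.42, adjusted p = 0.0249). Quantile normalization also let Spcs1 pass (0.33, adjusted p = 0.04675).

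By array, the mean of the 15 folding genes over their wild-type means was -0.05 to 0.25 in Mdr2-KO/IL6-KO and 0.11, 0.24, 0.32, 0.42 and 0.01 in Mdr2-KO, against -0.09 to 0.06 in wild type. Mdr2-KO array 5 therefore lay within the wild-type range, while Mdr2-KO/IL6-KO arrays 3 and 4, at 0.25 and 0.08, lay above it. For the 7 ERAD genes the same mean was -0.18 to 0.13 in Mdr2-KO/IL6-KO and 0.12 to 0.32 in Mdr2-KO, against -0.05 to 0.07 in wild type, so all Mdr2-KO arrays were above the wild-type range. The sensors and factors, which had calls in both directions, gave means of -0.03 to 0.08 in Mdr2-KO/IL6-KO and -0.04 to 0.16 in Mdr2-KO, against -0.03 to 0.04 in wild type. The 4 ATF4 and CHOP targets gave -0.24 to 0.16 in Mdr2-KO/IL6-KO and -0.23 to 0.02 in Mdr2-KO, against -0.13 to 0.13 in wild type. So 4 of the 5 Mdr2-KO arrays lay below the lowest wild-type array. These 4 targets did not move together in Mdr2-KO over wild type. Asns differed by -0.49 and Chac1 by -0.18, and Trib3 and Ppp1r15a by 0.04 and 0.08. Asns, with the largest difference, averaged 5.28 in Mdr2-KO, under the background of 5.49. The 4 translocation genes gave 0.05 to 0.18 in Mdr2-KO/IL6-KO and 0.00 to 0.20 in Mdr2-KO, against -0.20 to 0.17 in wild type, and all 3 groups overlapped. The median SD of the 36 genes within a group was 0.15 in each knockout, where that of all genes was 0.11 in Mdr2-KO/IL6-KO and 0.12 in Mdr2-KO. In wild type it was 0.11 and that of all genes was 0.13.

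**Figure D5:**
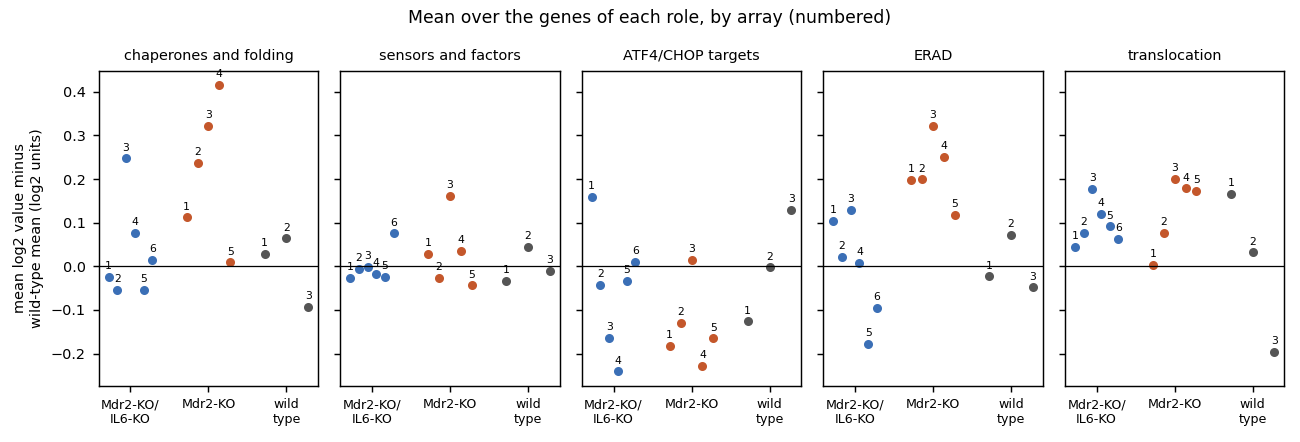
Mean log2 value minus the wild-type mean (y axis, log2 units) over the genes of each role on every array (points, numbered by array within its group), with Mdr2-KO/IL6-KO left, Mdr2-KO in the middle and wild type right. For chaperones and folding, 4 of the 5 Mdr2-KO arrays lie above the wild-type arrays and array 5 lies among them.

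Other cell types were read from marker lists beside these values. Plasma and B cells, which secrete heavily and express this pathway strongly, had 0 of 9 measured markers higher and 2 lower in each knockout against wild type, and the log2 of their summed level lay between 9.25 and 10.26 in Mdr2-KO/IL6-KO and between 9.41 and 10.14 in Mdr2-KO, against 9.50 to 10.21 in wild type. The group means of 3, 4 and 2 of these markers were under background in those groups. The differences of the 9 markers ran from -1.2796 to 0.79995 in Mdr2-KO over wild type, with 2 above 0 and 7 below. In Mdr2-KO/IL6-KO over wild type they ran from -1.0565 to 1.1005, also with 2 above 0 and 7 below. Among them Mzb1, a chaperone partner found in plasma cells, differed by -0.06 in Mdr2-KO over wild type (adjusted p = 0.617). Of 9 bile duct markers 6 were higher in Mdr2-KO/IL6-KO and 4 in Mdr2-KO, with a summed level of 10.51 to 11.56 and 10.50 to 11.29, against 9.53 to 10.11 in wild type. Of 10 fibroblast and stellate cell markers 5 and 4 were higher in these groups (summed level 12.14 to 12.65 and 11.89 to 12.52, against 12.04 to 12.16 in wild type). Of 10 macrophage markers 4 were higher in each (12.61 to 13.08 and 12.56 to 12.91, against 12.46 to 12.66). Of 7 T cell markers 4 and 3 were lower (8.69 to 9.23 and 8.64 to 9.21, against 9.25 to 10.05). Of 6 endothelial markers 0 and 1 were lower (11.35 to 11.81 and 11.40 to 11.66, against 11.58 to 11.82). Over all genes 6.96% were called higher and 5.33% lower in Mdr2-KO/IL6-KO over wild type, and 8.89% and 12.1% in Mdr2-KO over wild type. The part of these cell types in the results was not tested. The 8 hepatocyte markers had 0 calls by limma in any comparison, with 0 of 8 at an unadjusted p under 0.05, and a summed level of 15.63 to 15.71 over all arrays. Between the knockouts no gene of these 7 lists was called.

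Another 100 measured genes, listed for the same pathways, gave 25 higher and 11 lower in Mdr2-KO over wild type. They gave 13 higher and 8 lower in Mdr2-KO/IL6-KO over wild type, and 6 higher and 10 lower between the knockouts. The shares of all genes called higher and lower were 8.89% and 12.1%, 6.96% and 5.33%, and 5.04% and 3.72% in the same order. Of the 21 other folding genes 6 were higher and 3 lower in Mdr2-KO (28.6% and 14.3%). Grpel1, whose product works in mitochondria and not in the ER, is in this list and among the 6. Fkbp2, a prolyl isomerase of the ER, averaged 8.90 ± 0.29 in Mdr2-KO/IL6-KO and 9.74 ± 0.16 in Mdr2-KO, against 8.54 ± 0.28 in wild type (SD, n = 6, 5 and 3). It rose 1.20 log2 units in Mdr2-KO (adjusted p = 0.000190), and between the knockouts it fell by 0.84 (adjusted p = 0.00231). Dnajc10, a disulphide reductase that acts in ERAD, rose 0.63 in Mdr2-KO/IL6-KO livers and 0.94 in Mdr2-KO livers over wild type. Ero1b, an oxidase that recharges the disulphide isomerases, averaged 7.88 ± 0.17 in Mdr2-KO/IL6-KO and 8.68 ± 0.30 in Mdr2-KO, against 7.90 ± 0.14 in wild type. It rose 0.78 in Mdr2-KO (adjusted p = 0.00232) and fell by 0.80 between the knockouts (adjusted p = 0.00199), and it is 1 of the 12 genes outside the 36 with an ERSE.
Ero1b (chr13:12565672-12565710, minus strand): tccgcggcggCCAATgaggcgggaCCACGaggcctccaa
Ppib, cyclophilin B, opposed these genes, with a difference of 0.42 between the knockouts (adjusted p = 0.00445) and of -0.37 in Mdr2-KO over wild type (adjusted p = 0.0100, and 0.0578 without wild-type array 1). The calls of Fkbp2, Dnajc10 and Ero1b held under all 21 alternatives. Of the calls among the 100 genes, 12 of 36 in Mdr2-KO over wild type were kept under all alternatives. In Mdr2-KO/IL6-KO over wild type 6 of 21 were kept, and between the knockouts 9 of 16. The genes named from these lists were picked mainly for calls that were kept.

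Of 18 other ERAD genes 7 were higher and 4 lower in Mdr2-KO, 4 were higher and 1 lower in Mdr2-KO/IL6-KO over wild type, and 1 was higher and 4 lower between the knockouts. These shares were 38.9% and 22.2%, 22.2% and 5.56%, and 5.56% and 22.2%. Those over all genes were 8.89% and 12.1%, 6.96% and 5.33%, and 5.04% and 3.72%. Edem2 rose 0.64 in Mdr2-KO/IL6-KO livers and 0.69 in Mdr2-KO livers over wild type, whereas Edem3, a mannosidase of the same family, rose 0.42 in Mdr2-KO and fell by 0.43 between the knockouts. Edem1 from the same family was lower in Mdr2-KO/IL6-KO, as given above. Nploc4, a cofactor of the p97 ATPase, was lower in both knockouts (-0.32 in Mdr2-KO/IL6-KO and -0.60 in Mdr2-KO over wild type) and differed by 0.28 between them. These calls of Edem2, Edem3 and Nploc4 held under all 21 alternatives.

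Among 19 other genes of translocation and glycosylation 6 were higher and 1 lower in Mdr2-KO, 1 was higher and 2 lower in Mdr2-KO/IL6-KO over wild type, and 0 were higher and 3 lower between the knockouts. These shares were 31.6% and 5.26%, 5.26% and 10.5%, and 0% and 15.8%. Those over all genes were 8.89% and 12.1%, 6.96% and 5.33%, and 5.04% and 3.72%. Rpn1, a subunit of the oligosaccharyltransferase, rose 0.66 in Mdr2-KO over wild type (adjusted p = 0.000557). Sec62, which serves the channel in post-translational import, and Ssr3, the γ subunit of TRAP, fell by 0.29 and 0.30 between the knockouts (adjusted p = 0.00643 and 0.0110), and these 3 calls held under all 21 alternatives. Ssr1 of the same complex did not share the direction of Ssr3, since it differed by 0.19 between the knockouts and did not pass (adjusted p = 0.133).

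Of 14 other sensors and factors 2 were higher and 1 lower in Mdr2-KO over wild type (14.3% and 7.14%, with 8.89% and 12.1% of all genes). In Mdr2-KO/IL6-KO over wild type 1 was higher and 4 were lower (7.14% and 28.6%, with 6.96% and 5.33% of all genes). Between the knockouts 0 were higher and 1 was lower (0% and 7.14%, with 5.04% and 3.72% of all genes). Ppp1r15b, the constitutive eIF2α phosphatase subunit, fell by 0.29 in Mdr2-KO/IL6-KO against wild type (adjusted p = 0.0140) and was not called without wild-type array 1 or 2 (0.0576 or 0.0620). Of 28 other ATF4 and CHOP targets 4 were higher and 2 lower in Mdr2-KO, 5 were higher and 0 lower in Mdr2-KO/IL6-KO over wild type, and 3 were higher and 0 lower between the knockouts. These shares were 14.3% and 7.14%, 17.9% and 0%, and 10.7% and 0%. Those over all genes were 8.89% and 12.1%, 6.96% and 5.33%, and 5.04% and 3.72%. Gars, the glycyl-tRNA synthetase, rose 0.55 in each knockout over wild type and held under all 21 alternatives. Slc3a2, the heavy chain of amino acid transporters, rose 0.33 in Mdr2-KO/IL6-KO against Mdr2-KO (adjusted p = 0.00718) and also held. Atf3, a stress factor induced with CHOP, had a lowest, median and highest value of 7.30, 7.65 and 8.89 in Mdr2-KO/IL6-KO, against 6.91, 6.98, 7.11, 7.18 and 7.24 in Mdr2-KO and 6.96, 7.20 and 6.85 in wild type. Its call between the knockouts (0.74, adjusted p = 0.0396) was lost under 9 of 21 alternatives, among them each of Mdr2-KO arrays 1, 2, 3 and 4 left out (adjusted p = 0.0953, 0.0601, 0.0727 or 0.0687), Mdr2-KO/IL6-KO array 2 or 6 (0.0532 or 0.0658) and wild-type array 1 (0.0506).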

How the data were processed

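Per the labels, snap-frozen liver gave RNA by Trizol extraction, which was DNase-treated and hybridised as biotinylated cRNA, 1 array per sample. Arrays are numbered within a group in order of deposit. The authors deposited log2 values from RMA in Partek, per the submitters' processing notes. Software versions and batches are not stated, and RMA's normalization between arrays makes a shift shared by all genes unreadable. The table has 35557 probes, of which 21789 name 1 gene, 1621 several and 12147 none. Each gene was read from its probe of highest mean, giving 19938 genes with no filter on dim genes. Dnajc3 has 2 probes of identical values.

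The fit used limma 3.58.1 (R 4.3.3), 3 group means over 14 arrays and empirical Bayes moderation, with two-sided p-values adjusted by Benjamini-Hochberg over all genes and called at 0.05. The procedure was tested on simulated data. Gene roles, pathway lists, markers and the members themselves were chosen with earlier results of these data known. The rule for named genes gave array values for called genes and for all sensors and factors, and up to 4 called genes per list, of which those shown were picked after their values were seen, mainly for calls kept under all alternatives. Values of uncalled folding, ERAD and translocation genes were likewise added afterwards. The 21 alternatives were quantile normalization, centring, leaving out genes of low mean, the mean of a gene's probes, trend and robust moderation, array weights, the 2 groups alone, and each of 14 arrays left out. Python 3.11.15 searched the promoters and matplotlib 3.10.9 drew the plots. The 3, 5 and 6 arrays limit the precision.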

Additional observations from a re-analysis of the deposited data

Results flagged for a closer look

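In 4 of the 72 gene-by-group sets of 5 or 6 arrays, 1 array stood apart from the rest of its group, and chance alone gives about 1 in 20. Xbp1 read 11.2652 on Mdr2-KO array 3, where the other 4 lay between 10.65 and 10.78. Derl3 read 6.9914 on the same Mdr2-KO array 3, below the other 4 at 7.35 to 7.48. Herpud1 read 10.9274 on Mdr2-KO array 4, where the other 4 lay between 11.35 and 11.50. Spcs1 read 9.6776 on Mdr2-KO/IL6-KO array 6, where the other 5 lay between 9.93 and 10.08. Without the array concerned, Spcs1 passed in Mdr2-KO/IL6-KO over wild type (adjusted p = 0.0261).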

How the results depend on the processing

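No call of the 36 genes reversed under the 21 alternatives. Asns was read under 20 of them, because it is among the genes of low mean left out in 1. Of the 18 calls, 7 were kept under all of them: Hyou1, Pdia6, Ddit3 and Sec61b in Mdr2-KO over wild type, Xbp1 in Mdr2-KO/IL6-KO over wild type, and Sdf2l1 and Sec61b between the knockouts. Alternatives added calls for 8 genes in Mdr2-KO over wild type, 4 in Mdr2-KO/IL6-KO over wild type and 6 between the knockouts. Quantile normalization gave 11 genes higher in Mdr2-KO and 1 lower in Mdr2-KO/IL6-KO against wild type. Fitting only the 2 groups gave 1 lower in Mdr2-KO and 1 higher in Mdr2-KO/IL6-KO, centring gave 0 higher in Mdr2-KO/IL6-KO, and array weights gave 5 lower between the knockouts. The counts over all genes moved too. Quantile normalization gave 1793 higher in Mdr2-KO (main 1772) and 1183 lower in Mdr2-KO/IL6-KO (1062) over wild type. Fitting only the 2 groups gave 1525 lower in Mdr2-KO (2417) and 1145 higher in Mdr2-KO/IL6-KO (1388). Centring gave 1006 higher in Mdr2-KO/IL6-KO over wild type (1388), and array weights gave 935 lower between the knockouts (741). The cause of these moves was not tested.

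With 1 array left out, the genes called numbered 2140 to 4507 in Mdr2-KO over wild type (main 4189, fewest without wild-type array 3), 1635 to 2544 in Mdr2-KO/IL6-KO over wild type (2450) and 754 to 2164 between the knockouts (1746, with 754, 932 and 999 without Mdr2-KO array 1, 3 or 4, and 1055 and 1045 without Mdr2-KO/IL6-KO array 4 or 5). Of the 36, 4 to 9 were higher and 1 to 4 lower in Mdr2-KO (4 higher without wild-type array 3, 1 lower without wild-type array 1 or 2). In Mdr2-KO/IL6-KO over wild type 0 to 6 were higher (0 without wild-type array 3, 6 without Mdr2-KO/IL6-KO array 6) and 1 to 3 lower. Between the knockouts 0 to 1 were higher and 2 to 6 lower, with 1 and 6 without Mdr2-KO array 5. Over all genes, centring turned the split of 1388 higher and 1062 lower in Mdr2-KO/IL6-KO over wild type into 1006 and 1573, and that of 1005 and 741 between the knockouts into 424 and 1056, where quantile normalization gave 675 and 852. The lower calls of Sdf2l1, Sec61b and Syvn1 remained under both. No paired analysis was possible because the labels give each array an identifier of its own and no number shared between groups. Asns and Il6 lie near or under background, where arrays resolve little.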
